A study of Homo sapiens with 6 samples.

Results

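The genes described here are 10 human chaperone genes: the mitochondrial chaperones HSPD1, HSPE1 and HSPA9, the cytosolic HSP70 machine genes HSPA8, HSPA4, HSPH1 and DNAJA1, the cytosolic HSP90 genes HSP90AA1 and HSP90AB1, and the small heat shock protein gene HSPB1. They are 10 of the 60708 genes counted in 6 Ago-RIP-seq libraries, and they were taken by name. HSPD1 was picked because it was high in the AGO2 pull-down after mimic transfection, so its values in that comparison are given as a description with no test. The other genes were listed with earlier results of the same data known.

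The cells were MDA-MB-231, an established human triple-negative breast cancer line, transfected at 25 nM with a negative control oligonucleotide or a mimic, a synthetic copy of miR-99b-5p, and harvested after 18 h. In Ago-RIP-seq, an antibody against AGO2 (Argonaute-2, the protein that carries microRNAs to their target transcripts) pulls down RNA bound to AGO2, and that RNA is sequenced as the AGO2-IP. The flow-through is the RNA that stays behind. After mimic transfection there were 2 libraries of each fraction (replicates 1 and 2) and after control transfection 1 of each, so the control arm had no replicate. The study's methods describe replicates for each condition, while the sample labels give a single control library of each fraction, and the labels were followed here. A pull-down with IgG was not analysed here. A level in these bulk libraries is a share of all gene counts, and fewer cells with a transcript cannot be told apart from less transcript per cell. RNA carried along by the antibody-coated beads without AGO2 was not measured in these libraries.

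Chaperones bind unfolded or partly folded proteins and help them reach their native form. HSPD1 (HSP60) forms a barrel in the mitochondrial matrix in which proteins fold, and HSPE1 (HSP10) is its lid. HSPA9 (mortalin) pulls proteins into the matrix, and HSPA8 (HSC70) is the abundant HSP70 of the cytosol. DNAJA1 is a J-domain protein that delivers clients to HSP70 and drives its ATP hydrolysis, and HSPA4 and HSPH1 belong to the HSP110 branch that releases ADP from HSP70. HSP90AA1 and HSP90AB1 are the stress-inducible and the constitutive cytosolic HSP90, which finish the folding of kinases and steroid receptors. HSPB1 (HSP27) holds unfolded proteins without using ATP. Many of these genes are transcribed by heat shock factors, and cancer cells commonly hold them at high levels.

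Both a microRNA and promoter elements frame the results. The transfected microRNA is shown because a transcript can be drawn into AGO2 by pairing with its seed. The heat shock elements are shown because the promoter windows of some of these genes held a match and those of others did not. Mature miR-99b-5p is 22 nucleotides long and is encoded at chr19:51692618-51692639 on the plus strand (RefSeq, GRCh38.p14). Its seed, bases 2 to 8, stands in capitals.
miR-99b-5p: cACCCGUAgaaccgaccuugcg
A transcript that pairs with bases 2 to 7 holds ACGGGT, and pairing with base 8 as well extends it to TACGGGT. None of the canonical transcripts of the 10 chaperone genes held ACGGGT anywhere, in the coding sequence or in either untranslated region. Of 11898 protein-coding canonical transcripts, 17.3% held it anywhere and 6.67% held it in the 3′ untranslated region. Over all 126 annotated transcripts of the 10 genes, 2 held it: a retained-intron transcript of HSPD1, of 24 annotated, and a transcript of HSPA4 without a defined coding sequence, of 3 annotated. A match to bases 3 to 8 of the seed, TACGGG, was held by 33 of the 126 transcripts. Among these were 20 of 23 for HSPA9 and 9 of 24 for HSPA8, the canonical transcript of each included. How common this shorter match is over all genes was not counted. Pairing with mismatches or outside the seed was not searched for.

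The promoter windows of RefSeq run from 250 bases before to 50 bases after a start site. They were searched on both strands for 3 adjoining units of the heat shock element, in which GAA and TTC alternate with any 2 bases between them, beginning with either, so that the motif on the opposite strand is the same pattern begun with the other unit. A match was present in 5 of the 10 genes, in 5 of their 14 windows, and in 0.49% of all 35116 windows. The matches are printed with their surroundings because they divide the genes into those with and those without a match in these windows. The capitals mark the matching bases.
HSPD1, chr2:197500062-197500090, minus strand: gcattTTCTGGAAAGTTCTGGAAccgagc
HSPA8, chr11:123062346-123062374, minus strand: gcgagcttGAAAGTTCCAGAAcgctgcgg
HSPA8, chr11:123062171-123062199, minus strand: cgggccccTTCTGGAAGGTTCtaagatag
DNAJA1, chr9:33025268-33025296, plus strand: gccgggcgGAACTTTCCAGAAcgctcggt
HSP90AA1, chr14:102087112-102087140, minus strand: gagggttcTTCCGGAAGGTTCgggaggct
HSP90AB1, chr6:44247770-44247798, plus strand: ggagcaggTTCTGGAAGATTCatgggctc
HSP90AB1, chr6:44247823-44247851, plus strand: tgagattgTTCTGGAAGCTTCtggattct
In HSPD1, 2 overlapping matches make up the run in capitals. HSPE1, HSPA9, HSPA4, HSPH1 and HSPB1 had no match in their windows, which says only that these letters are absent there. HSPD1 and HSPE1 lie head to head on chromosome 2, with the HSPE1 start site 105 and 539 bases from the 2 RefSeq start sites of HSPD1. The HSPD1 match thus falls in the stretch between the pair's outermost start sites.

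The libraries differed in more than the labels. Gene counts were 7772149 and 8076375 in the control flow-through and AGO2-IP, and 38022779 to 48544756 in the 4 mimic libraries. Read pairs that STAR assigned to no gene made up 92.3% and 95.03% of the control libraries against 21.4% to 47.2% of the mimic libraries, and pairs mapping to several places alone made up 73.7% and 76.7% of the controls. Mitochondrially encoded genes took 43.4% of the control flow-through's gene counts, 3.48% in its AGO2-IP and at most 0.125% of a mimic library. The mimic fractions differed as well. Pairs assigned to no gene made up 35.1% and 47.2% of the mimic flow-through against 21.9% and 21.4% of the mimic AGO2-IP. Pairs mapping to several places made up 9.69% and 19.2% against 2.71% and 2.38%, and pairs on several genes 16.7% and 19.2% against 8.02% and 7.63%. Neither transfection nor, in the mimic pair, the fraction can be told apart from these library properties. Markers of the mesenchymal line (VIM, CD44, AXL, CAV1, MSN and LGALS1) summed to 2480 to 4426 CPM (counts per 1000000 counts on genes), while luminal markers summed to at most 198 CPM, fibroblast markers to 23.2 and blood markers to 2.23. AGO2's own transcript stood between 122 and 385 CPM in the 3 flow-through libraries and between 343 and 597 CPM in the 3 AGO2-IP libraries, which says nothing of how much protein was pulled down.

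Together the 10 chaperone genes took 0.154% of gene counts in the flow-through and 0.416% in the AGO2-IP after control transfection. After mimic transfection they took 0.466% and 0.308% in the flow-through and 1.33% and 1.54% in the AGO2-IP. The mimic AGO2-IP shares were the highest, but they include HSPD1, picked for its height there, at 2233 and 4283 CPM. They are given as a description. The 95% Wilson interval of a gene's CPM reached at most 10.5% of the value to either side in any library for 9 of the genes, and 61.6% for HSPE1, counting error only.

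**Figure D1:**
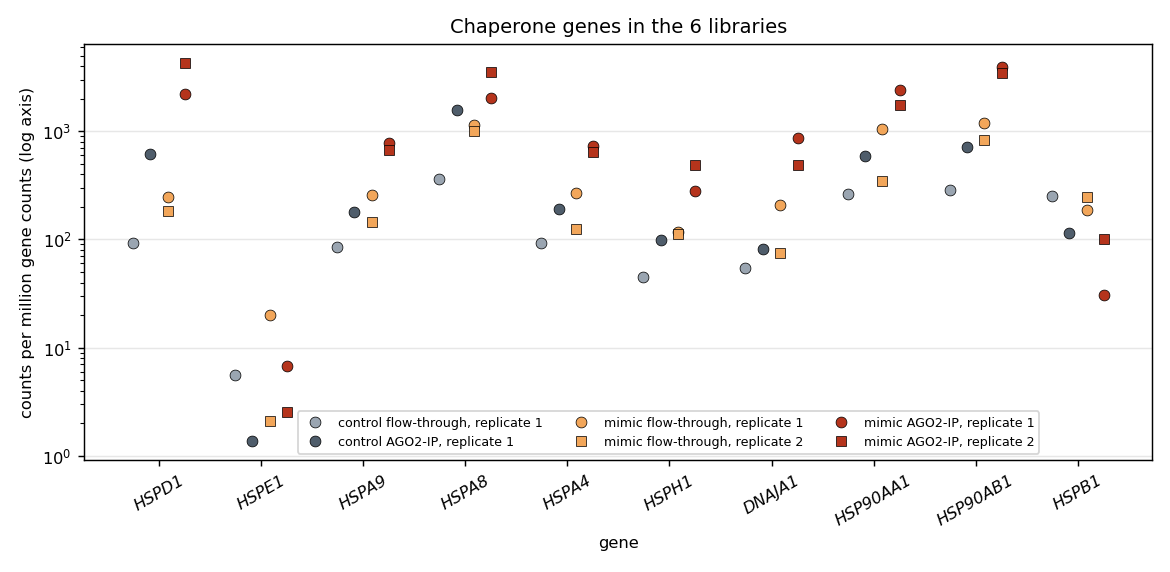
Level of each chaperone gene (x axis) in CPM (y axis, log scale) in the 6 libraries, with colour for the group and circles and squares for replicates 1 and 2. Both mimic AGO2-IP points lie above both mimic flow-through points for 8 genes and below them for HSPB1, while HSPE1 overlaps and stays under 20 CPM.

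Of the 10 genes, 8 were higher in both mimic AGO2-IP libraries than in both mimic flow-through libraries, HSPB1 was lower in both, and HSPE1 overlapped. Besides HSPD1, picked for its height there, 7 of the 9 were higher in this way. HSPD1 stood apart with a 15.1-fold difference, while the 7 other higher genes differed 2.53-fold to 4.96-fold. In the edgeR quasi-likelihood test none of the 9 genes besides HSPD1 was called, which asked for a log2 fold change of 1 or more in either direction with an adjusted p (Benjamini-Hochberg) of 0.05 or less, against 0.245% of 13078 genes called higher and 0.413% called lower. With the replicate number as a block, 2 of the 9, DNAJA1 and HSP90AB1, were called higher, against 4.6% of all genes, and none lower, against 5.08%. An unadjusted p under 0.05 was reached by 8 of the 9 genes and by 23.8% of all genes. PyDESeq2, the tool the study names, called 4 of the 9 higher (HSPA9, HSPA4, DNAJA1 and HSP90AB1), against 6.43% of all genes, and none lower, against 8.24%. Non-overlap of this kind was itself common, since 26.4% of all genes had both AGO2-IP libraries above both flow-through libraries in CPM and 28.7% had both below. At a log2 fold change of 1 or more without a test were 8 of the 10 genes, or 7 of the 9 besides HSPD1, against 20% of all genes, and 2 were at -1 or less, against 26.9%. The median log2 fold change was 1.77 over the 10 genes and 1.71 over the 9 besides HSPD1, beside -0.11 over all genes tested. Leaving out mimic flow-through replicate 1 brought 5 of the 9 genes past the threshold as higher (HSPA9, HSPA4, DNAJA1, HSP90AA1 and HSP90AB1) and HSPB1 as lower, and the same fit called 2476 genes higher (20.2%) and 2527 lower (20.6%).

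After control transfection HSPD1 held 723 counts in the flow-through and 4974 in the AGO2-IP. After mimic transfection it held 11499 and 8845 in the flow-through and 104375 and 162860 in the AGO2-IP. In the same order these were, as CPM, 93.02 (95% Wilson interval 86.5 to 100.1), 616 (599 to 633), 245, 182, 2233 and 4283. Every AGO2-IP library was above every flow-through library, the control included, and the 2 mimic AGO2-IP libraries were far above the rest. The mimic AGO2-IP mean was 3258 ± 1450 CPM (SD, n = 2) and the mimic flow-through mean 213 ± 44.2 CPM (SD, n = 2). Within replicate 1 the AGO2-IP over flow-through ratio of CPM was 9.13, within replicate 2 it was 23.5, and in the control pair 6.62. By count HSPD1 ranked 620th and 857th of the 60708 genes in the mimic flow-through, 16th and 9th in the mimic AGO2-IP, and 1237th and 173rd in the control flow-through and AGO2-IP.

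The log2 fold change of HSPD1 in the mimic pair was 3.92 (SE 0.67), with the differences between single AGO2-IP and flow-through libraries running from 3.30 to 4.37. It was the 19th highest of 13078 genes and the 15th of 11747 protein-coding genes. No p is given, since HSPD1 was picked on this contrast.

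HSPE1, the partner of HSPD1 in the folding barrel, behaved otherwise, but on few counts. Its control libraries held 43 counts (flow-through) and 11 (AGO2-IP), its mimic flow-through 933 and 102 and its mimic AGO2-IP 313 and 96. The 2 mimic flow-through libraries differed more from each other (19.9 and 2.10 CPM) than either group mean from the other (4.61 ± 2.95 against 10.98 ± 12.6 CPM, SD, n = 2). Its log2 fold change of -1.11 (SE 0.95, edgeR adjusted p = 0.488) turned to 0.79 without mimic flow-through replicate 1. Counting bears on this gene: 34.5% of its canonical transcript lies in exons of the read-through gene HSPE1-MOB4, which held 0 counts in every library, and pairs on both genes are not counted. HSPE1 also has 26 annotated copies elsewhere in the genome, and 43.4% of the 31-base stretches of its transcript are found in them, so pairs from those stretches may map to several places. The length of HSPE1 is 557 bases, the shortest of the 10 canonical transcripts.

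HSPA9, the mitochondrial HSP70, stood at 84.7 CPM in the flow-through and 181 in the AGO2-IP of the control cells, at 258 and 146 in the flow-through after mimic and at 774 and 668 in the AGO2-IP after mimic. Both mimic AGO2-IP libraries were above all others. Its log2 fold change in the mimic pair was 1.84 (SE 0.58, edgeR adjusted p = 0.111). Of the 2 mitochondrial genes besides HSPD1, which was picked for its rise, HSPA9 was thus higher in both mimic AGO2-IP libraries and HSPE1 was not. Of all genes, 26.4% were higher in this way.

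In the cytosolic HSP70 machine, DNAJA1, the J-domain partner, had the largest difference. Its level was 54.0 CPM (flow-through) and 81.1 CPM (AGO2-IP) in the control, 207 and 75.2 in the mimic flow-through, and 864 and 487 in the mimic AGO2-IP. Both replicates differed the same way, 4.17-fold and 6.48-fold in CPM. The log2 fold change was 2.31 (SE 0.65, edgeR adjusted p = 0.088) and 2.34 (adjusted p = 0.0183) with the replicate block, which called it.

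HSPA8, the constitutive HSP70, was among the most abundant of the genes in every library, with 360 CPM (flow-through) and 1561 CPM (AGO2-IP) in the control, 1138 and 1011 in the mimic flow-through, and 2029 and 3533 in the mimic AGO2-IP. The mimic groups did not overlap, although the control AGO2-IP lay closer to the mimic AGO2-IP than for the other genes of its class. Its log2 fold change of 1.34 (SE 0.60, edgeR adjusted p = 0.201) was the smallest of the 8 higher genes. HSPA8 shares 15.1% of its exonic bases with other genes, among them the small nucleolar RNA genes SNORD14C and SNORD14D.

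The HSP110 genes HSPA4 and HSPH1 had differences of similar size. HSPA4 stood at 92.1 CPM (flow-through) and 190.1 CPM (AGO2-IP) in the control, 269.8 and 125 in the mimic flow-through and 726 and 648 in the mimic AGO2-IP, a log2 fold change of 1.83 (SE 0.60, edgeR adjusted p = 0.116). HSPH1 stood at 45.0 CPM (flow-through) and 98.2 CPM (AGO2-IP) in the control, 117 and 111 in the mimic flow-through and 281 and 489 in the mimic AGO2-IP, a log2 fold change of 1.71 (SE 0.62, edgeR adjusted p = 0.14). Neither was called, with or without the replicate block.

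The HSP90 genes were abundant in every library. HSP90AB1, the constitutive form, stood at 285 CPM (flow-through) and 721 CPM (AGO2-IP) in the control, 1182 and 832 in the mimic flow-through and 3929 and 3456 in the mimic AGO2-IP. Its replicates were the closest of the 10 genes across fractions, 3.32-fold and 4.15-fold. The log2 fold change was 1.86 (SE 0.57, edgeR adjusted p = 0.103), and with the replicate block it was 1.86 with an adjusted p of 0.0284, which called it. HSP90AA1, the inducible form, stood at 266 CPM (flow-through) and 594 CPM (AGO2-IP) in the control, 1038 and 348 in the mimic flow-through and 2429 and 1754 in the mimic AGO2-IP. Its log2 fold change was 1.66 (SE 0.62, edgeR adjusted p = 0.149), and its 2 flow-through libraries differed more from each other, as a ratio of CPM, than the nearest libraries of the 2 fractions did.

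HSPB1, the small heat shock protein gene, went the other way. Its level was 251 CPM (flow-through) and 114 CPM (AGO2-IP) in the control, 187 and 245 in the mimic flow-through and 30.4 and 101 in the mimic AGO2-IP. Each flow-through library was above each AGO2-IP library. The log2 fold change was -1.80 (SE 0.73, edgeR adjusted p = 0.171), not called, and the flow-through exceeded the AGO2-IP 6.17-fold and 2.44-fold in the 2 mimic replicates and 2.20-fold in the control pair.

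Per kilobase of canonical transcript, a rough scale between genes, the order changed between fractions. Pairs from stretches shared with copies or other genes may go uncounted, which would lower the genes that have many. In copies were 50.9% of the 31-base stretches of HSPD1, 43.7% for HSPA8 and 41.3% for HSP90AB1, against 0% for HSPA4 and HSPH1. In the control flow-through HSPB1 was first of the 10 genes with 324 CPM per kb, and it was 9th and 8th in the mimic AGO2-IP with 39.1 and 129.5. HSPD1 was 5th in each of the 3 flow-through libraries, at 41.4, 109 and 81.2 CPM per kb, 3rd in the control AGO2-IP at 274, and 2nd and 1st in the mimic AGO2-IP at 995 and 1908. The ranges of HSPD1, HSP90AB1 (1353 to 1538) and HSPA8 (896 to 1561) overlapped over the mimic AGO2-IP libraries, so their order there was within the spread. HSPE1 was 9th or 10th in every library.

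**Figure D2:**
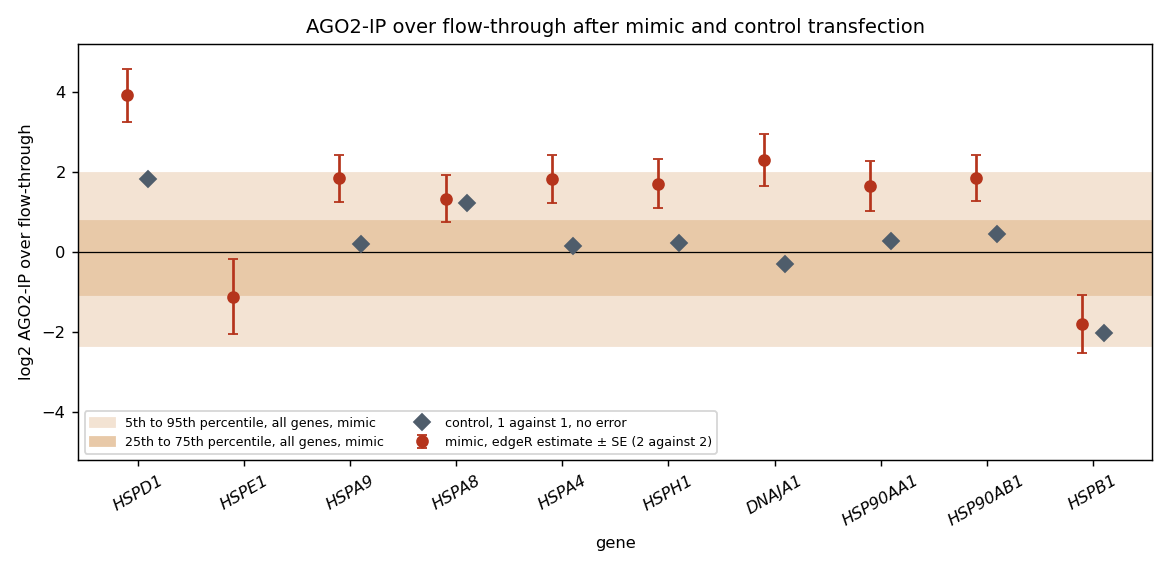
log2 AGO2-IP over flow-through (y axis) for each chaperone gene (x axis): circles are the mimic estimates from 2 against 2 libraries with SE bars, diamonds the control ratio of 1 against 1 library without error, and the bands hold all genes tested in the mimic pair. HSPD1 lies at 3.92 and 1.83, HSPA8 and HSPB1 have nearly the same value in both pairs, and HSPE1 has no control value.

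In the control pair, with 1 library a side and no test, HSPD1 and HSPA8 were the only members at a log2 ratio of at least 1, of the 9 with enough counts, against 15.9% of 8245 genes. HSPD1 stood at 1.83 and HSPA8 at 1.22, and HSPB1 at -2.03, where 18.1% of genes were at -1 or lower. The other 6 lay between -0.31 (DNAJA1) and 0.45 (HSP90AB1), and the median of the 9 was 0.23 beside 0.01 over all genes. These ratios depend on the scaling. Under library size alone in place of TMM (edgeR's trimmed mean scaling), 7 of the 9 were at 1 or higher, as were 46.6% of all genes, whose median moved from 0.01 to 0.91. HSPD1 then stood at 2.74, HSPA8 at 2.13, HSP90AB1 at 1.35 and HSPB1 at -1.12, and DNAJA1 turned to 0.60.

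The mimic pair minus the control pair was positive for 8 of the 9 genes besides HSPD1 and for 45.3% of all genes, but no gene of 13319 was called in this comparison (0% of genes). It was fitted in edgeR over all 6 libraries, where the lone control libraries are assumed to vary like the mimic libraries, and 82 genes had an unadjusted p under 0.05 (0.616%), none of the 9 among them. DNAJA1 had the largest difference, 2.41 on the log2 scale (SE 1.11, unadjusted p = 0.0516, adjusted p = 1 in edgeR). HSPA9, HSPA4, HSPH1, HSP90AA1 and HSP90AB1 lay between 1.18 and 1.48, each with an adjusted p of 1, and HSPE1 at 1.59 (adjusted p = 1). HSPA8 at -0.09 and HSPB1 at 0.03 had estimates near 0, and both signs changed under some alternatives. For HSPD1 the difference was 1.88 (SE 1.08), given without p.

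**Figure D3:**
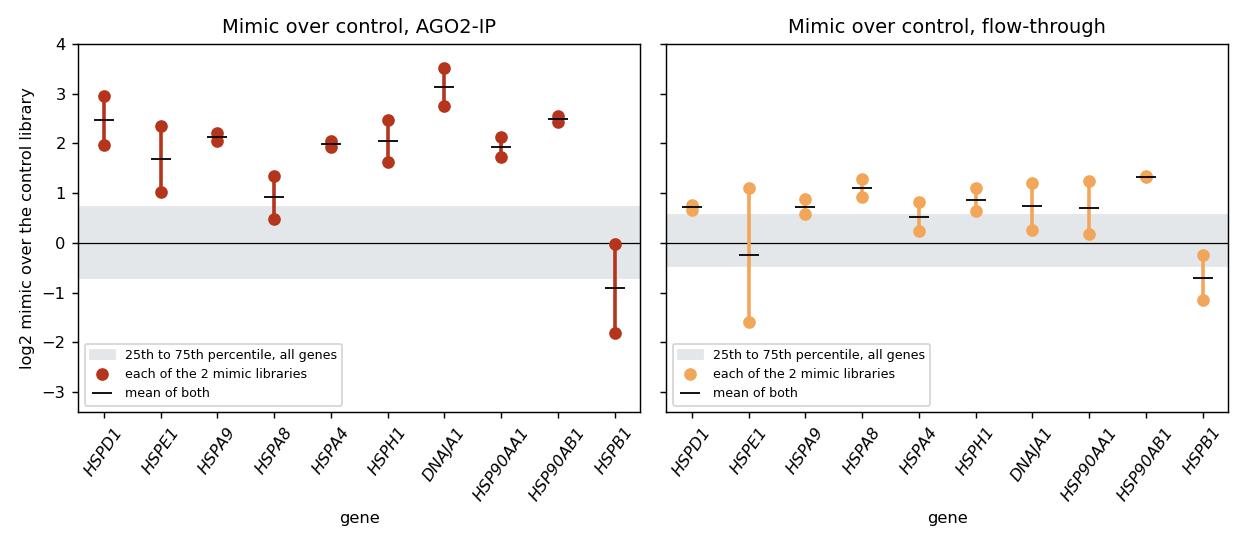
log2 of each mimic library over the control library of the same fraction (y axis), AGO2-IP on the left and flow-through on the right, for each chaperone gene (x axis). Points are the 2 mimic libraries, the dash their mean and the grey band the 25th to 75th percentile of all genes. With both points above 1 lie 8 genes in the AGO2-IP, HSPE1 among them on 11 control counts, against 1 in the flow-through.

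Set directly against the control AGO2-IP, the mimic AGO2-IP held more of most chaperone transcripts. Both mimic libraries were at a log2 ratio of at least 1 for 8 of the 10 genes, and for 7 of the 9 besides HSPD1, which was picked for its height after mimic transfection, against 12.2% of 11467 genes. DNAJA1 was highest at 3.13 (2.75 and 3.52 in single libraries), then HSP90AB1 at 2.49, HSPD1 at 2.46 (from 1.964 to 2.96) and HSPA9 at 2.13. HSPH1 at 2.05, HSPA4 at 1.98, HSP90AA1 at 1.93 and HSPE1 at 1.68 followed, the last on 11 control counts. Both were above 0 for 9 genes, or 8 of the 9 besides HSPD1, against 41.1% of genes. HSPA8 stood at 0.91 (0.48 and 1.34) and HSPB1 at -0.91 (-1.81 and -0.02). The median was 2.02, or 1.98 without HSPD1, beside 0.02 over all genes.

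In the flow-through the same comparison gave smaller values. HSP90AB1 alone was at 1 or higher with both mimic libraries, against 2.8% of 12254 genes, at a mean of 1.33. Both libraries were above 0 for 8 genes, or 7 of the 9 besides HSPD1, against 30.8% of genes. HSPD1 stood at 0.71, HSPA9 at 0.73, HSPA8 at 1.10, HSPH1 at 0.87, DNAJA1 at 0.74, HSP90AA1 at 0.71 and HSPA4 at 0.52, with HSPE1 at -0.24 and HSPB1 at -0.70. The median was 0.72 beside 0.05 over all genes. No p belongs to either comparison, because each rests on 1 control library, and the 2 comparisons and the control pair share those control libraries.

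Transcript base composition moved with the AGO2-IP over flow-through difference across all genes. Over 11747 protein-coding genes Spearman's rho was -0.55 between log2 fold change in the mimic pair and GC content and 0.30 with transcript length, a description across genes that share the same 4 libraries. The canonical transcripts of the 9 genes besides HSPB1 held 39.3% to 47.2% GC, below the protein-coding median of 48.0%, and that of HSPB1 held 65.3%. The 3849 protein-coding genes within the GC range of those 9 had a median log2 fold change of 0.52, and the 893 with at least 63% GC had a median of -1.65, close to the -1.80 of HSPB1. With each library's trend on GC removed, HSPD1 stood at 3.17, DNAJA1 at 1.65, HSP90AB1 at 1.65 (edgeR adjusted p = 0.0494, called), HSPA4 at 1.23, HSPA9 at 1.18, HSP90AA1 at 1.07, HSPA8 at 0.92, HSPH1 at 0.70, HSPB1 at -0.47 and HSPE1 at -1.55. So 1 of the 9 was called higher in that fit, against 3.32% of all genes, and none lower, against 2.36%. With the GC trend removed and the replicate block together, 5 of the 9 were called higher (HSPA9, HSPA4, DNAJA1, HSP90AA1 and HSP90AB1), against 14% of all genes, and HSPE1 lower at -1.52 (adjusted p = 0.0205), against 12.7%.

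**Figure D4:**
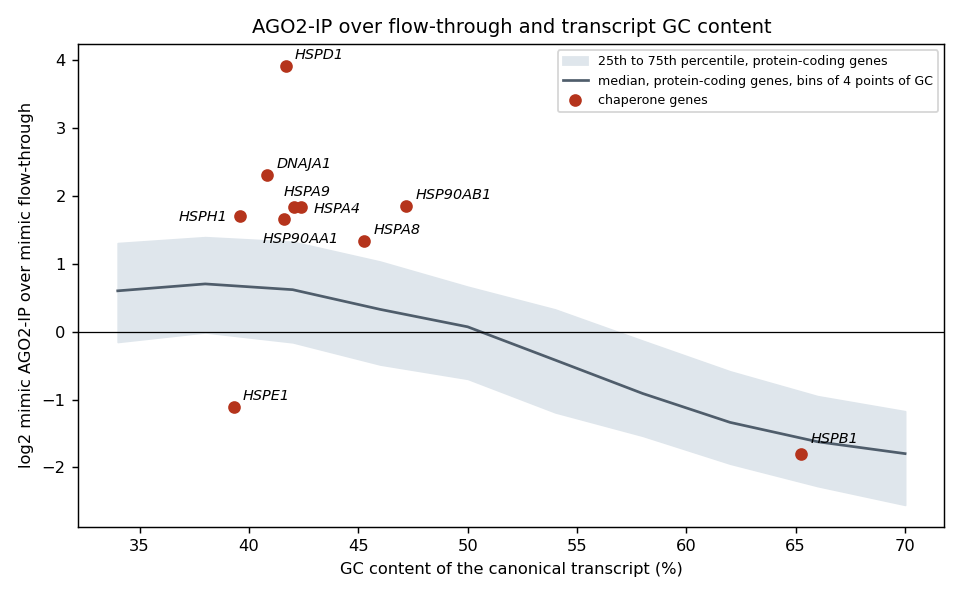
log2 mimic AGO2-IP over mimic flow-through (y axis) against GC content of the canonical transcript in percent (x axis): red points are the 10 chaperone genes, the line is the median of protein-coding genes in bins of GC and the band their 25th to 75th percentile. HSPB1, at 65.3% GC, lies on the falling trend, HSPE1 lies below the band and the other 8 lie above the line.

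Copies elsewhere in the genome took few of the counts. The 10 genes have 81 annotated copies, which together held 3465 counts over the 6 libraries, and 4 of them held 200 or more: HSPD1P1 with 839, HSP90AA2P with 773, HSP90AB3P with 656 and HSPD1P4 with 252. All copies of HSPD1 together came to 0.428% of its own counts and those of HSPE1 to 7.14%. HSPD1P1 held 4 and 18 counts in the control flow-through and AGO2-IP and 45 and 86 in the mimic flow-through. In the mimic AGO2-IP it held 259 and 427, and only through these did it reach 200, so its height there is a description. Since 50.9% of the 31-base stretches of the HSPD1 transcript are also in its copies, the HSPD1 counts rest more on the stretches that are unique to it. HSPA4 and HSPH1 (0%), DNAJA1 (8.04%) and HSPA9 (10.97%) had no such stretches or few. With the counts of copies added to their parent, HSPD1 stood at 3.91 and HSPE1 at -1.11 in the mimic pair. Pairs mapping to several places stayed uncounted in that fit, and whether they bear on the differences between fractions was not tested.

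Among the protein-coding genes whose log2 CPM over the 6 libraries, centred on their mean, lay closest to HSPD1 were HNRNPA1, SF3B1, HNRNPM and COPB2, of 4404 genes with at least 200 counts in each library. These 4 differed from HSPD1 by a root mean square of 0.39 to 0.46 on the log2 scale (Pearson's r 0.97 to 0.98, over libraries whose groups set most of the spread). HNRNPA1 and HNRNPM encode proteins that coat pre-mRNA, SF3B1 a core splicing factor and COPB2 a coat protein of vesicles between Golgi and ER. The median gene differed by 1.91. Of the chaperone genes with enough counts, 7 ranked 126th (HSP90AB1) to 259th (HSP90AA1) in likeness and HSPB1 4162nd.

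The wider chaperone network was read from 7 lists with 68 genes, of which 58 had enough counts. None was called in the mimic pair in either direction (edgeR), against 0.245% and 0.413% of all genes, and 15 of the 58 had an unadjusted p under 0.05, against 23.8% of all genes. With the replicate block 4 were called higher, against 4.6% of genes, and 3 lower, against 5.08%. Without mimic flow-through replicate 1 the counts were 14 higher, against 20.2% of the genes in that fit, and 7 lower, against 20.6%. The median log2 fold change of the 58 was 0.48, and 36 lay above 0, as did 47.0% of all genes, whose median was -0.11.

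Members of the mitochondrial list pointed both ways, with a median of -0.59 over 10 genes. GRPEL2, a nucleotide exchange factor of HSPA9, was highest at 2.75 (adjusted p = 0.0842, and 0.0083 with the block, called), with 38.0 and 7.37 CPM in the mimic flow-through and 110.1 and 170.5 in the mimic AGO2-IP. CLPP, the matrix protease subunit, was lowest at -2.24 (adjusted p = 0.0825, and 0.0368 with the block, called), with 156 and 89.2 CPM in the flow-through against 27.7 and 24.1.

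Among cytosolic partners, the other HSP70 and HSP110 genes had a median of 0.86 over 7 genes, from HSPA2 (-0.35, adjusted p = 0.814), the testis-enriched HSP70, to HSPA14 (1.95, adjusted p = 0.155), a ribosome-associated HSP70. The 13 J-domain genes had a median of 0.70, from DNAJB1 (-1.08, adjusted p = 0.295), the heat-inducible HSP40, to DNAJA2 (2.54, adjusted p = 0.0776, and 0.0145 with the block, called), a close relative of DNAJA1. DNAJA2 held 70.2 and 25.7 CPM in the mimic flow-through and 344 and 194 in the mimic AGO2-IP, with the groups apart. The 9 nucleotide exchange factors and partners had a median of 0.04, from HSPBP1 (-2.44, adjusted p = 0.115) to BAG5 (1.26, adjusted p = 0.252), both of which act on HSP70's nucleotide cycle.

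The 13 HSP90 co-chaperones had a median of 0.75. PPID, the cyclophilin of steroid receptor complexes, stood highest at 2.35 (adjusted p = 0.0979, and 0.0286 with the block, called), and CHORDC1, also called with the block, at 2.19 (adjusted p = 0.143, and 0.0188 with the block). Of the small heat shock protein genes 2 of 9 had enough counts, IFT25 (formerly HSPB11) at -0.95 (adjusted p = 0.441) and HSPB8 at -1.57 (adjusted p = 0.357). The list of heat shock factors and their binding protein, 4 genes, had a median of -0.79. It ranged from HSF1 at -2.41, the master regulator of the heat shock response (adjusted p = 0.0846, and 0.0361 with the block, called), to HSF2 at 0.57 (adjusted p = 0.649).

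**Figure D5:**
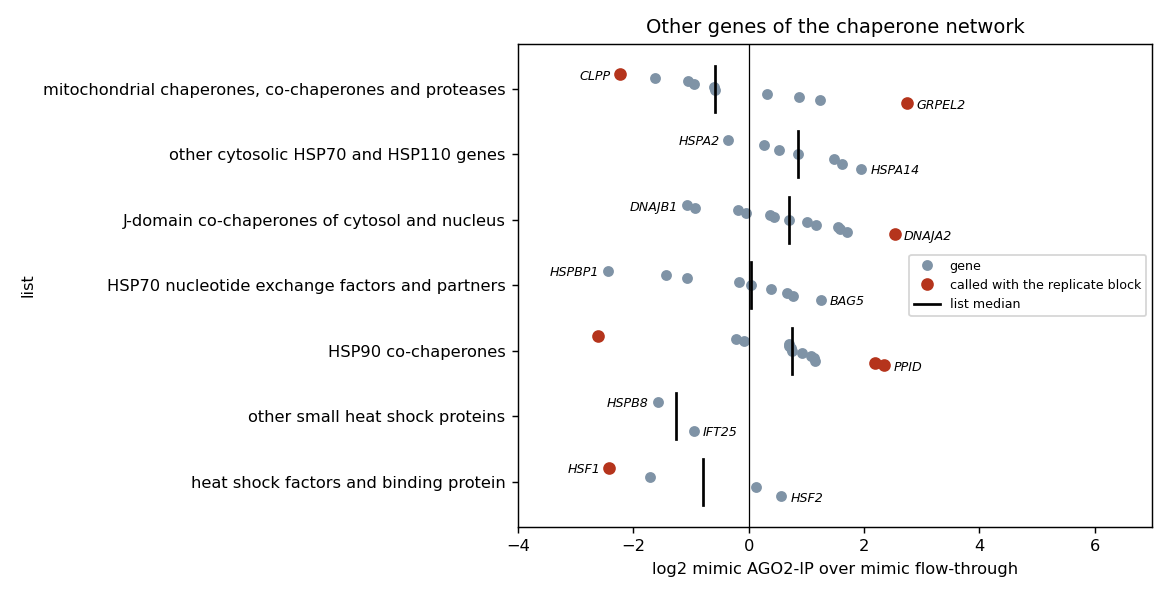
log2 mimic AGO2-IP over mimic flow-through (x axis) of 58 other chaperone network genes by list (y axis): points are genes, black bars list medians and red points the 7 genes called with the replicate block. The lists' medians run from -1.26 for the small heat shock proteins to 0.86 for the HSP70 and HSP110 genes, and each gene named is the lowest or highest of its list.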

How the data were processed

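Ago-RIP-seq of 6 MDA-MB-231 libraries was analysed. The authors checked paired reads with FastQC (0.11.9), removed adaptors and poor bases with Cutadapt (3.5), and ran STAR (2.7.11b) in 2 passes over GRCh38, counting per gene. The deposited values are raw gene counts without normalization, and the unstranded counts (column 2) were used because the kit marks no strand in the sources used here and the stranded columns were about equal. STAR counts a pair only where it maps to 1 place and 1 gene, which lowers genes with copies or overlaps. Rows naming no gene (21.4% to 95.03% of read pairs) were left out. Names, transcripts and GC content came from GENCODE release 44, whose identifiers matched 60507 of 60708 genes, and promoters and the microRNA from RefSeq. The labels give each group and replicate, and dose and time come from the study's methods.

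The mimic fractions were compared with edgeR 4.0.16 (R 4.3.3; glmQLFit and glmQLFTest, TMM, summed count of at least 200 over the 4 libraries, Benjamini-Hochberg adjustment over all 13078 genes). SE is the size of the log2 fold change over the square root of F. Control comparisons are log2 ratios of TMM-scaled CPM (prior count 2) without p. GC trends were removed with a lowess curve (span 0.2) through offsets. PyDESeq2 0.5.4 was an alternative.

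The labels give each biological replicate of the mimic both fractions, so the replicate numbers pair the libraries. Libraries of one number deviated together from the group means (Pearson's r = 0.324, Spearman's rho = 0.236, across 13078 genes, which are not independent). Blocked values stand beside the results whose call they change.

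The members and lists were chosen with earlier results of these data known. Named genes are the 10 members, network genes called in the mimic pair (none) and the highest and lowest of each list, copies of a member with 200 or more counts, HSPE1-MOB4, the 5 genes most like HSPD1, and AGO2, of which 2 are not reported here. CHORDC1, SNORD14C and SNORD14D are named outside this rule, after their values or overlaps were seen.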

Additional observations from a re-analysis of the deposited data

Results flagged for a closer look

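DNAJA1 was marked because its AGO2-IP over flow-through difference pointed one way in every mimic comparison of libraries (log2 1.47 to 3.21) and the other way in the control pair, at -0.31 (-0.3056). Among 8225 genes with a value in both, 953 (11.6%) did likewise in either direction. The control value rests on 420 and 655 counts in 1 library a side and was 0.60 under library size alone. The edgeR test of the difference gave 2.41 (SE 1.11, unadjusted p = 0.0516, adjusted p = 1). No group had 4 or more libraries, so no library was tested as standing apart within its group.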

How the results depend on the processing

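The 2 replicates a group and 1 control library limit every comparison, with a biological coefficient of variation of 0.527 and replicate differences with an SD of 0.84 (AGO2-IP) and 1.44 (flow-through) on the log2 scale. Of the values given for single genes, 514 kept their direction and side of the threshold or moved by less than the replicate spread, 20 passed the threshold under an alternative, 82 values without a test moved by more and 8 values with a test changed sign. With the values without a test, 15 changed sign: those of HSPE1 in the mimic pair and in the flow-through, mimic over control (0.077 to 0.98), of DNAJA1 in the control pair and of HSPA8 and HSPB1 in the difference between pairs. The cause of a change was not tested, except where fewer genes or libraries entered by construction.

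All genes called higher and lower in the mimic pair numbered 32 and 54. They numbered 13 and 33 with DESeq2's size factors, 9 and 35 with library size alone, 144 and 86 with a summed count of at least 10, 419 and 204 with no filter, 213 and 371 with at least 200 counts in every library, 10 and 28 with column 3, 2 and 12 with column 4, 0 and 0 with protein-coding genes only and 145 and 205 with libraries thinned to the shallowest. With the replicate block they numbered 601 and 664, with the GC trend removed 434 and 309, with the GC trend removed and the replicate block 1835 and 1658, and with PyDESeq2 841 and 1077. With the counts of copies added to their parent they numbered 36 and 57. Leaving out a library gave 2 to 2476 higher and 20 to 2527 lower. These were 2476 and 2527 without mimic flow-through replicate 1, 235 and 420 without flow-through replicate 2, 13 and 22 without AGO2-IP replicate 1 and 2 and 20 without AGO2-IP replicate 2.

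Of the 9 members besides HSPD1, 0 were called. The count higher was 1 with no filter (DNAJA1), 2 with the replicate block, 1 with the GC trend removed, 5 with both and 4 with PyDESeq2, and 0 to 5 with a library left out. The count lower was 1 with the GC trend and the replicate block, and 0 to 1 with a library left out. HSPE1 reversed to 0.79 without mimic flow-through replicate 1 (adjusted p = 0.457) and ran from -1.95 to 0.79 with a library left out. HSPD1 ran from 3.16 to 4.32. Of all genes, 4.6% were called higher with the replicate block, 3.32% with the GC trend removed, 14% with both and 6.43% with PyDESeq2. Called lower were 5.08%, 2.36%, 12.7% and 8.24% in the same order. For the fit with no filter only the numbers of genes called are given, not their share.

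The shares of all genes given for the members belong to the same fits here, and the share was not computed for other filters or thinned libraries. Of the 58 network genes, 0 were called. Called higher and lower were 3 and 0 with no filter, 2 and 4 with at least 200 counts in every library, 0 and 2 thinned, 4 and 3 with the replicate block, 3 and 0 with the GC trend removed, 15 and 7 with both, 5 and 4 with PyDESeq2, and 0 to 14 and 0 to 7 with a library left out, the highest without mimic flow-through replicate 1.

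Under library size alone, 46.6% of all genes were at a log2 ratio of at least 1 in the control pair, from 15.9%. The members there went from 2 to 7. In the flow-through, mimic over control, they went from 2 to 7 under library size alone, a summed count of at least 10 and no filter. In the AGO2-IP they stayed at 7 to 9. Before any alternative, 1228 of 12254 genes were at 1 or higher in the flow-through and 1984 of 11467 in the AGO2-IP. Shares of all genes under the alternatives were not computed for these 2 comparisons. In the difference between pairs, HSPB1 turned from 0.03 to -0.59 with library size alone, -0.081 with column 3, -0.34 without mimic flow-through replicate 1 and -1.004 without AGO2-IP replicate 2, with leave-one-out values from -1.004 to 0.65. HSPA8 turned from -0.09 to 0.077 with a summed count of at least 10 and 0.077 without flow-through replicate 2, and to 0.27 without AGO2-IP replicate 1, with leave-one-out values from -0.46 to 0.27. No member was called there under any of these.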
